A study of Mus musculus with 8 samples.

Results

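Granzymes and perforin are the proteins with which cytotoxic lymphocytes kill target cells. Their genes were taken by symbol, as *Gzma*, *Gzmb*, *Gzmc*, *Gzmd*, *Gzme*, *Gzmf*, *Gzmg*, *Gzmk*, *Gzmm* and *Prf1*, which are 10 of the 48321 gene symbols that were counted. All 10 were present in the count tables, and 6 of them passed the filter on low counts and were tested.

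Perforin, encoded by *Prf1*, is a pore-forming protein that is stored in secretory granules and lets granzymes enter the target cell. Granzymes are serine proteases stored in the same granules. Granzyme B cleaves after aspartate and starts apoptosis through caspases, granzymes A and K cleave after basic residues, and granzyme M cleaves after methionine or leucine. Resting CD8+ T cells hold few granules, and the granzyme genes are switched on after stimulation through the T-cell receptor and by cytokines such as IL-2.

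The RNA came from splenic CD8+ T cells of C57BL/6 mice in 8 libraries, with 2 libraries in each of 4 groups: WT at day 0, KO at day 0, WT at day 5 and KO at day 5. The mice are described in the series as *Satb1* F/F; *E8I-cre*, a combination of floxed alleles of *Satb1*, which encodes a chromatin organizer of T cells, and a Cre recombinase under the *E8I* enhancer of the *Cd8* locus, which is active in mature CD8 lineage cells. The labels give the genotype of each library only as WT or KO, and whether the WT mice carried floxed alleles or the transgene, the age of the mice, and the number of mice behind each library are not given in the sources used here. The series describes the day 5 cells as cultured and stimulated in vitro, and the agents and doses are likewise not given. Because nothing states that replicates came from separate mice or cultures, the p-values below measure only the spread between these libraries, which may be technical.

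Each library held between 4170126 and 11117971 counts over genes. At this depth a limit of 3 counts corresponded to between 0.256 and 0.676 CPM (counts scaled to library size with trimmed mean of M-values factors) at day 0 and between 0.527 and 0.720 CPM at day 5, counting error only. The targeted gene *Satb1* had 97.5 and 91.2 CPM in WT and 144 and 124 CPM in KO before culture. At day 5 it had 96.1 and 115 CPM in WT and 56.3 and 62.1 CPM in KO. Thus *Satb1* was lower in KO at day 5 (-0.84 on the log2 scale, SE 0.15). The false discovery rate (FDR) was 0.0162 by the quasi-likelihood test of edgeR, adjusted after Benjamini and Hochberg over 12597 genes. At day 0, against the label, it was not lower (0.51, SE 0.15, FDR 0.125). The floxed exons are not named in the labels, so whole-gene counts test the deletion only in part, and KO is used throughout as the label of a library.

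Of the 10 genes, 6 lie in 1 cluster on mouse chromosome 14 (chr14:56117626-56262260, mm10, GENCODE annotation), in the order *Gzme*, *Gzmd*, *Gzmg*, *Gzmn*, *Gzmf*, *Gzmc* and *Gzmb*, all on the minus strand, of which *Gzmn* is not one of the 10. *Gzma* (chr13:113093825-113100981) and *Gzmk* (chr13:113171608-113225908) are neighbours on the minus strand of chromosome 13, and *Gzmm* (chr10:79689020-79695261) and *Prf1* (chr10:61297833-61304680) lie apart on the plus strand of chromosome 10. The cluster is of interest because its genes resemble each other so closely that a 50-base read can fall in more than 1 of them. The 50 bases around the codon of the active-site serine show how much they differ. Every window lies in a coding exon on the minus strand of chromosome 14 (mm10), the serine codon begins at base 6, and capitals mark bases that differ from *Gzmd*:
*Gzmb*: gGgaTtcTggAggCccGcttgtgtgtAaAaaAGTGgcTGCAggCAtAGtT
*Gzmc*: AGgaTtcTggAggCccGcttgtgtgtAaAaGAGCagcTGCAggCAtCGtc
*Gzmd*: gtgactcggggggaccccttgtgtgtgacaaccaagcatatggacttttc
*Gzme*: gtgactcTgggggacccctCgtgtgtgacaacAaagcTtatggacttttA
*Gzmf*: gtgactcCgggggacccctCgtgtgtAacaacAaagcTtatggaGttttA
*Gzmg*: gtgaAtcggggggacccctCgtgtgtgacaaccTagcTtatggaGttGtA
The windows lie at chr14:56259512-56259561 for *Gzmb*, chr14:56231607-56231656 for *Gzmc*, chr14:56129768-56129817 for *Gzmd*, chr14:56117819-56117868 for *Gzme*, chr14:56205468-56205517 for *Gzmf* and chr14:56156782-56156831 for *Gzmg*. *Gzme* differed from *Gzmd* at 5 of 50 bases and *Gzmf* and *Gzmg* at 7 each, whereas *Gzmb* and *Gzmc* differed at 21 each. Over the whole coding sequence the identity among *Gzmd*, *Gzme*, *Gzmf* and *Gzmg* was 83.4% to 93.3%, and that of *Gzmb* and *Gzmc* was 76.0%.

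**Figure D1:**
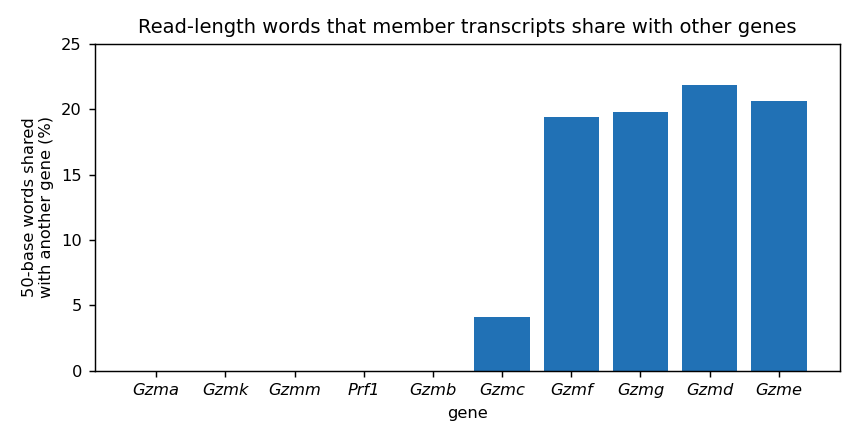
Bars from 0 give the share of each gene's 50-base words (vertical axis, percent of all words of its transcripts) that also occur in the transcripts of another gene, for the 10 genes. *Gzmd* to *Gzmg* sit between 19.4% and 21.9%, *Gzmc* at 4.14%, and the 5 others at 0.

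Every 50-base word of the transcripts was compared with those of all other genes, as the libraries were read to 50 bases. *Gzma*, *Gzmb*, *Gzmk*, *Gzmm* and *Prf1* shared none with another gene. *Gzmc* shared 4.14% of its words (35 of 845), and *Gzmd*, *Gzme*, *Gzmf* and *Gzmg* shared 21.9%, 20.6%, 19.4% and 19.8%. Counts of these last 4 genes and, to a small extent, of *Gzmc* are therefore uncertain, since a read that aligned to several places was set aside by the counting program. *Gzmf* also shared 16.4% of its exon length with *Gm4022* on the opposite strand, and the strand setting of the counting is not given in the sources used here.

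The 250 bases before the RefSeq start site (GRCm38.p6) are shown for the 4 genes that the results turn on and for *Gzmc* and *Gzmd*, a weakly expressed and a silent gene of the same cluster as *Gzmb*. Each is written 5′ to 3′ on the strand of its gene. Capitals mark matches, on either strand, to the RUNX core TGTGGT, the AP-1 site TGANTCA, the T-box site TCACAC or the STAT site TTCNNNGAA, and no match overlapped another:
*Prf1*, chr10:61297586-61297835, plus strand: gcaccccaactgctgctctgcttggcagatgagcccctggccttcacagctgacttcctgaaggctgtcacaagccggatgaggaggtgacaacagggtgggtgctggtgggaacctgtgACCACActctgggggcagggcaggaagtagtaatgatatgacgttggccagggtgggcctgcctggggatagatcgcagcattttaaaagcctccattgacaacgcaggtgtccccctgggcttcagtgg
*Gzmb*, chr14:56262335-56262584, minus strand: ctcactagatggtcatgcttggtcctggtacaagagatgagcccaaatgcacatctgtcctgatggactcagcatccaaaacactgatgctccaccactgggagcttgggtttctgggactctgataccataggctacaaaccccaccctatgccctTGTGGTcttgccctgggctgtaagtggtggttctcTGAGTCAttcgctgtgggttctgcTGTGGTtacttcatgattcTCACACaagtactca
*Gzma*, chr13:113100982-113101231, minus strand: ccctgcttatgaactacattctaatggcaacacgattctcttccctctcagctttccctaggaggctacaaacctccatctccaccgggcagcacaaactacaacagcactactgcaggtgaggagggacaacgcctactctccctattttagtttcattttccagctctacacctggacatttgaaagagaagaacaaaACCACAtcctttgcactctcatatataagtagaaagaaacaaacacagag
*Gzmk*, chr13:113180966-113181215, minus strand: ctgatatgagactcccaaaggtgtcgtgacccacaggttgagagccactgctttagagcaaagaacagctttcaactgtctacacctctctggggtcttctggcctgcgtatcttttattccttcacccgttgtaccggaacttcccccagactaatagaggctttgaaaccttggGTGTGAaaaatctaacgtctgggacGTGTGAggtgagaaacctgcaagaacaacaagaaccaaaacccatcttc
*Gzmc*, chr14:56234658-56234907, minus strand: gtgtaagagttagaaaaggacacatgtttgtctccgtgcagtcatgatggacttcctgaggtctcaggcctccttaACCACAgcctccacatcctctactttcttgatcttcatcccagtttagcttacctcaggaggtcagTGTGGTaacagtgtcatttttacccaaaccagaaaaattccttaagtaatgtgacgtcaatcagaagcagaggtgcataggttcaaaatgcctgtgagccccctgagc
*Gzmd*, chr14:56132594-56132843, minus strand: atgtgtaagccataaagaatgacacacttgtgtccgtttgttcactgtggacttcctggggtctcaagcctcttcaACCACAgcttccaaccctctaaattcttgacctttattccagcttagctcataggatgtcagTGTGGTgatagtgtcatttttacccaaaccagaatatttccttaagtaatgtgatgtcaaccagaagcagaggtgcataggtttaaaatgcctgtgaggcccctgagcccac
The RUNX core was found before 9 of the 10 genes, all except *Gzmk*, and before 14.05% of 32851 RefSeq promoters of the same length (4614). The 10 genes had 11 windows, as *Gzmm* had 2, whereas the share of all promoters counts each window alone. *Gzmm* held its RUNX and STAT matches in 1 window and its T-box match in the other. All 6 cluster genes held 2 matches to the RUNX core, and as these genes resemble each other their matches are not separate instances. In *Gzmc* and *Gzmd* these lay at nearly the same distances, 174 to 169 and 108 to 103 bases before the start site in *Gzmc* and 174 to 169 and 112 to 107 in *Gzmd*, although only *Gzmc* was above the detection limit at day 5. *Gzmb* held its RUNX matches at 93 to 88 and 34 to 29 bases, an AP-1 match at 58 to 52 bases and a T-box match at 15 to 10 bases. The AP-1 site was found before none of the other members and before 6.75% of all promoters. T-box sites were found before *Gzmb*, *Gzmk* (74 to 69 and 49 to 44 bases) and *Gzmm*, against 12.3% of all promoters, and the STAT site only before *Gzmm*, against 7.02%. The letters TATAAA, present in 12.4% of promoters, were in none of the members' windows. These matches describe letters and not binding.

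Taken as a group, the 10 genes held 0.0150% to 0.0195% of all gene counts at day 0 and 0.452% to 0.549% at day 5, and *Gzmb* alone made up 0.367% to 0.441% at day 5. The day 0 cells were therefore poor in granzyme RNA, but they were not without RNA of the pathway, because *Prf1* was present in every library. To compare genes with each other, CPM were divided by exon length in kilobases (RPKM). On that scale *Prf1* held 91.9% ± 1.99 (SD, n = 2) of the summed level of the 10 genes in WT at day 0 and 92.6% ± 2.92 in KO. After 5 days *Prf1* held 0.803% ± 0.122 and 1.27% ± 0.0784, and *Gzmb* held 91.6% ± 3.08 in WT and 75.2% ± 2.71 in KO.

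**Figure D2:**
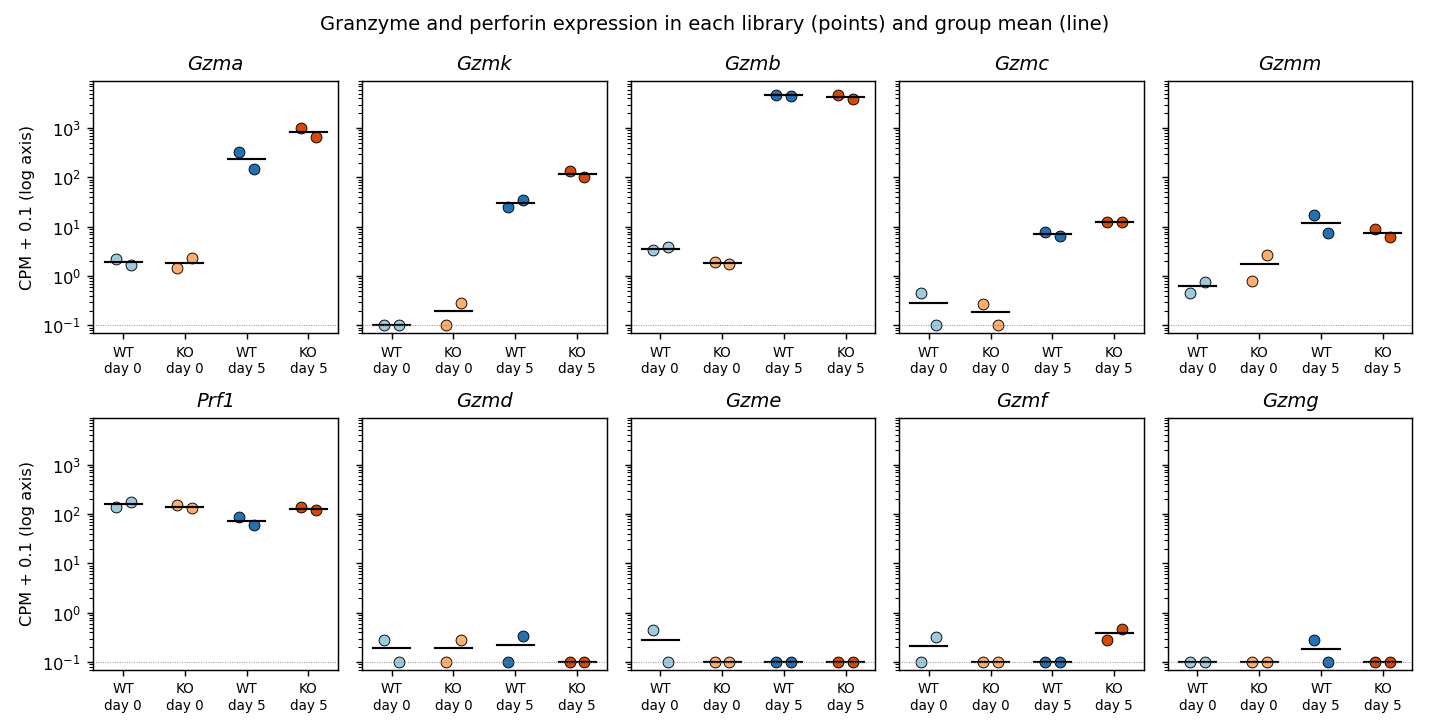
Level of each of the 10 genes (vertical axis, CPM + 0.1, log scale) in each of the 8 libraries, with 1 point a library and a line at the group mean. *Gzma*, *Gzmb*, *Gzmc*, *Gzmk* and *Gzmm* are higher at day 5 than at day 0 in both genotypes, *Prf1* is present in every library and *Gzmd* to *Gzmg* stay at or under 2 counts in each.

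*Prf1* was at 138 and 179 CPM in WT and 151 and 134 CPM in KO at day 0. At day 5 it was at 85.8 and 60.7 CPM in WT and 137 and 121 CPM in KO. Both WT libraries at day 5 were below all 6 others, and KO at day 5 overlapped with day 0. *Prf1* thus fell with culture in WT (-1.10 on the log2 scale, SE 0.18, FDR 0.000327), and in KO its change of -0.15 (SE 0.18, 95% interval -0.53 to 0.24, FDR 0.510) was not called. An offset for GC content and exon length changed the latter to -0.50 with a call (FDR 0.0295). Between genotypes *Prf1* did not differ detectably at day 0 (-0.15, SE 0.18, FDR 0.798) and was higher in KO at day 5 (0.81, SE 0.18, FDR 0.0489). The day 5 call was at the edge of the threshold and held in 8 of 17 alternatives, with FDR from 0.000441 to 0.295. It was lost without WT day 0 replicate 1, WT day 0 replicate 2, WT day 5 replicate 2, KO day 5 replicate 1 or KO day 5 replicate 2. It was also lost with the GC and length offset (FDR 0.148) and with that offset and a block for replicate number (0.141). The block alone (0.0506) and a fit of only the 4 day 5 libraries (0.0675, all edgeR with Benjamini-Hochberg adjustment) lost it too. The lowest FDR came from the fit without a filter on low counts. The log2 fold change stayed between 0.60 and 1.09.

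*Gzmb*, encoding granzyme B, was the most abundant member after culture. At day 0 it was at 3.21 and 3.83 CPM in WT and 1.79 and 1.65 CPM in KO, from 9 to 21 counts a library. At day 5 it was at 4789 and 4413 CPM in WT and 4585 and 3911 CPM in KO. The days were separated by over 3 orders of magnitude, and the genotypes overlapped at day 5. *Gzmb* rose by 10.36 on the log2 scale in WT (SE 0.18) and by 11.23 in KO (SE 0.19). At day 5 the genotypes differed by -0.12 (SE 0.11, 95% interval -0.36 to 0.13, FDR 0.712). At day 0 both KO libraries were below both WT libraries, by -0.99 (SE 0.26, 95% interval -1.55 to -0.43), which had an unadjusted p of 0.00562 (edgeR) but did not pass adjustment (FDR 0.145, over the alternatives 0.130 to 0.490).

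*Gzma*, encoding granzyme A, was at 2.14 and 1.58 CPM in WT and 1.37 and 2.19 CPM in KO at day 0, from 7 to 16 counts a library. At day 5 it was at 325 and 145 CPM in WT and at 1002 and 673 CPM in KO. The WT libraries differed from each other by a wide margin, and both were below both KO libraries. *Gzma* rose by 6.95 in WT (SE 0.47) and by 8.97 in KO (SE 0.46) on the log2 scale. At day 5 it was higher in KO, at 837 ± 232 CPM (SD, n = 2) against 235 ± 127 CPM, which is 1.83 on the log2 scale (SE 0.29, FDR 0.00909). The call held in 16 of 17 alternatives and was lost without KO day 5 replicate 1 (1.51, FDR 0.0738, edgeR with Benjamini-Hochberg adjustment, range over the alternatives 1.10e-28 to 0.0738). Without WT day 5 replicate 1, the higher of the WT libraries, the genotype difference became 2.54 and the increase in WT became 6.27. Without WT day 5 replicate 2 the genotype difference became 1.37. The lowest FDR of the range above came from the fit without a filter on low counts. At day 0 the difference was -0.19 (SE 0.76, FDR 0.950), with 19 counts over both WT libraries and 28 over both KO libraries.

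*Gzmk*, encoding granzyme K, had no count in WT and 1 count in KO at day 0. At day 5 it was at 25.5 and 34.1 CPM in WT and at 133 and 103 CPM in KO, again without overlap. Against the limit of 3 counts over the group, *Gzmk* rose at least 97.6-fold in WT. In KO, where the day 0 value is that single count, the ratio of pooled rates was 2033, with an exact interval of 364 to 80376 that, like those of *Gzmc* below, covers counting error only. The fitted log2 value in KO was 9.17 without KO day 0 replicate 1 and 12.49 without KO day 0 replicate 2, the library with that count, and so gives no size. At day 5 *Gzmk* was higher in KO, at 118 ± 21.5 CPM against 29.8 ± 6.09 CPM, which is 1.996 on the log2 scale (SE 0.23, FDR 0.00182). This call held in 17 of 17 alternatives, with FDR from 1.05e-15 to 0.0267. The lowest of these FDRs came from the fit without a filter on low counts. No fold is given for day 0, where both genotypes were under the limit.

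*Gzmc* and *Gzmm* were weakly expressed. *Gzmc*, a cluster gene whose product is less well studied, had 2 counts in each genotype at day 0 and was at 7.73 and 6.24 CPM in WT and 12.1 and 12.3 CPM in KO at day 5. The ratio of pooled rates of day 5 to day 0 was 35.7 in WT (exact interval 9.52 to 300.5) and 105 in KO (28.4 to 872). Both day 0 counts lay in replicate 1 in either genotype, so the size of the ratio rests on that library, and without it only a value at 0 remains. The KO libraries were above the WT libraries at day 5, but the difference of 0.79 (SE 0.39, 95% interval -0.06 to 1.64, FDR 0.397) was not called. *Gzmm*, encoding granzyme M, was at 0.356 and 0.676 CPM in WT and 0.684 and 2.56 CPM in KO at day 0, and at 16.9 and 7.20 CPM in WT and 8.80 and 6.23 CPM in KO at day 5. The day 5 values were above those of day 0 by 4.55 in WT and 2.40 in KO on the log2 scale, by 3.82 in WT without WT day 5 replicate 1, and in KO by 1.56 without KO day 0 replicate 1 and 3.43 without KO day 0 replicate 2. The genotypes overlapped at day 5 (-0.70, SE 0.49, 95% interval -1.77 to 0.37, FDR 0.582). Without WT day 5 replicate 1 this value became 0.069. At day 0 the difference was 1.46 (SE 0.90, FDR 0.531) and rested on 5 counts in WT and 22 in KO. It was 2.32 without KO day 0 replicate 1 and 0.45 without KO day 0 replicate 2.

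*Gzmd*, *Gzme*, *Gzmf* and *Gzmg* were at or under the limit in every library. They had 10 counts in all over the 8 libraries and at most 2 in any library, so they were not tested and no fold is given. Since 19.4% to 21.9% of their 50-base words occur in other genes, a part of their reads would not have been counted, and RNA of these genes was not detectable at this depth from unique reads. Thus the cluster on chromosome 14 ranged at day 5 from *Gzmb*, with a mean of 3204 RPKM in WT and 2958 RPKM in KO, through *Gzmc*, with 7.82 and 13.6 RPKM, to its other 4 members near 0.

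*Gzmc*, *Gzmk* and *Gzmm* passed the filter through their day 5 libraries alone and had to be higher there, so their increase is a description. Of the other tested members, *Gzma* and *Gzmb* were called higher at day 5 in both genotypes and *Prf1* was called lower in WT alone. Of all genes, 24.7% were higher and 23.6% lower in WT, and 26.2% were higher and 24% lower in KO. With scaling to library totals only, the median of all genes shifted from -0.04 to -0.17 in WT and from -0.05 to -0.23 in KO, and in KO 2765 of 6677 called genes were higher in place of 3296 of 6325, while the members' calls were the same in both genotypes.

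**Figure D3:**
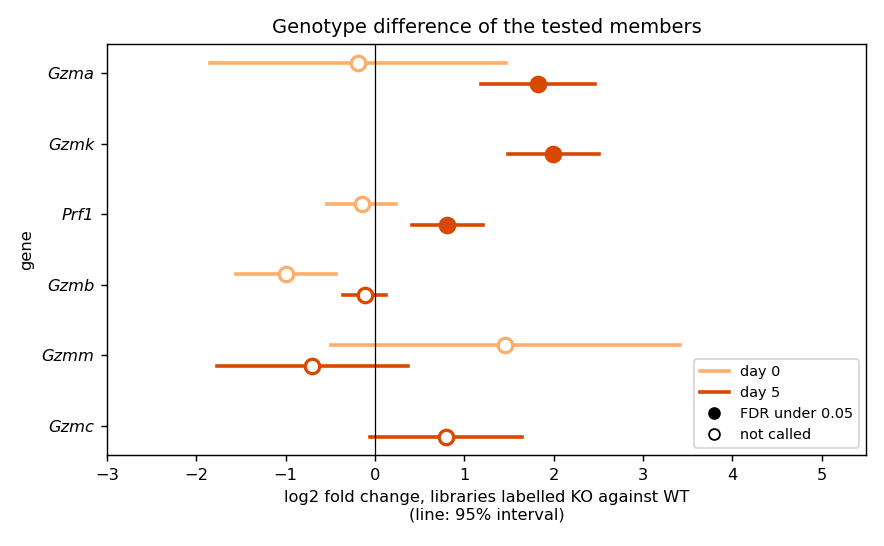
Log2 fold change of KO against WT (horizontal axis) with its 95% interval (bars) for the 6 members tested, at day 0 and day 5. At day 5 the intervals of *Gzma*, *Gzmk* and *Prf1* lie above 0, and at day 0 none of the 4 differences was called although the interval of *Gzmb* lies below 0. *Gzmc* and *Gzmk* have no day 0 value because both genotypes were under the limit of 3 counts.

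Between genotypes, 3 of 6 members (*Gzma*, *Gzmk* and *Prf1*) were higher and none was lower in KO at day 5, where 1.31% of all genes were higher and 0.318% lower. The groups did not overlap for 4 of 6 members, against 45.6% of all genes. At day 0 none of the 6 was called by edgeR with Benjamini-Hochberg adjustment, where 1.8% of all genes were called, and 1 of 6 (*Gzmb*) had an unadjusted p under 0.05, against 13.8% of all genes. The groups did not overlap for 2 of 6 members at day 0, against 43.5% of all genes. DESeq2 also called 0 of the 6 at day 0. *Gzmc* and *Gzmk* are among the 6, but both genotypes were under the limit of 3 counts, so they could not have been called there. The test between days that follows rests, for these 2 genes, on the same day 0 counts. The test of whether the genotype difference itself differed between days called 0 of 6 members, against 0.159% of all genes, and 3 of 6, against 12.4% of all genes, had an unadjusted p under 0.05 in edgeR: *Prf1* (0.96, SE 0.25, FDR 0.173), *Gzmb* (0.88, SE 0.28, FDR 0.292) and *Gzma* (2.02, SE 0.86, FDR 0.361, and 2.73 with FDR 0.0900 without WT day 5 replicate 1). With DESeq2 *Prf1* was called (FDR 0.0349), and without a filter on low counts *Gzma* (FDR 0.0119) and *Prf1* (FDR 0.0283, edgeR) were called. *Gzma* was thus called in this test only without a filter on low counts, and *Prf1* only there and with DESeq2. With a filter of at least 5 CPM in 2 libraries neither was called.

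**Figure D4:**
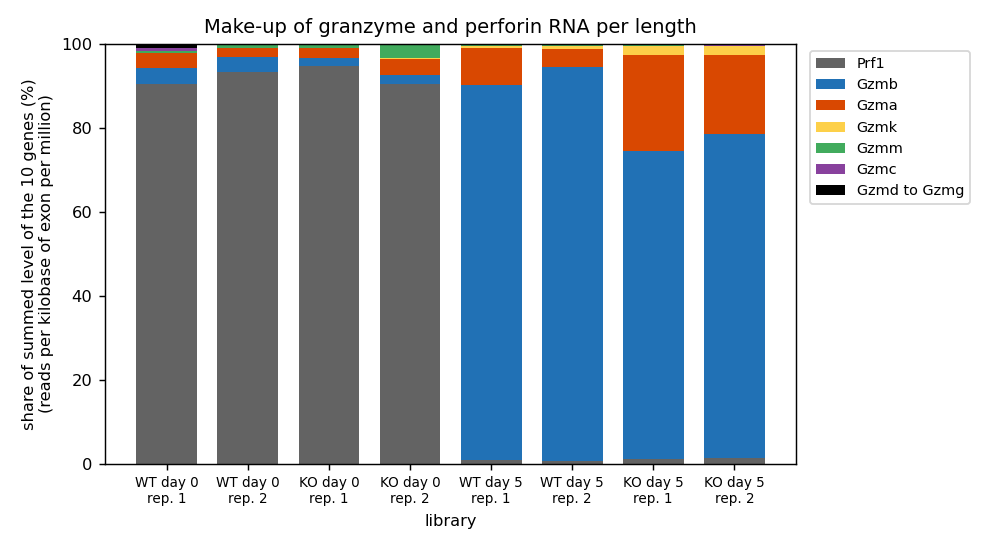
Share of each gene in the summed level of the 10 genes (vertical axis, percent of summed RPKM) in each of the 8 libraries, as stacked bars from 0. *Prf1* fills most of the day 0 bars and *Gzmb* most of the day 5 bars, where the share of *Gzma* is larger in the KO than in the WT libraries.

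Within the day 5 libraries the granzymes stood in different proportions in WT and KO. For every 100 units of *Gzmb* (RPKM) there were 9.68 and 4.69 units of *Gzma* in WT and 31.2 and 24.6 in KO. For *Gzmk* the values were 0.550 and 0.799 in WT and 3.01 and 2.72 in KO. Both ratios were higher in each KO library than in each WT library. The ratio of *Gzmk* to *Gzma* did not separate the genotypes, with 5.68 and 17.0 units of *Gzmk* per 100 of *Gzma* in WT and 9.65 and 11.1 in KO. *Gzmb* exceeded *Prf1* by 100.5-fold and 131-fold in WT and by 60.3-fold and 58.2-fold in KO. The order of levels at day 5 was *Gzmb* (3204 RPKM), *Gzma* (234), *Prf1* (28.3) and *Gzmk* (21.4) in WT, and *Gzmb* (2958), *Gzma* (832), *Gzmk* (85.1) and *Prf1* (49.9) in KO, followed in both by *Gzmc* (7.82 in WT and 13.6 in KO) and *Gzmm* (8.18 and 5.10), which stood in opposite order in WT and KO. In WT the ranges of *Prf1* and *Gzmk* overlapped over the 2 libraries, as did those of *Gzmc* and *Gzmm*. The summed level did not separate the genotypes, at 3730 and 3278 RPKM in WT and 4357 and 3532 RPKM in KO.

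The genes that act with granzymes and perforin were examined by list. Of 9 tested genes of granule storage and protease activation, none was called between genotypes at day 5 or day 0 by edgeR (medians -0.08 and 0.01), and 1 and 0 had an unadjusted p under 0.05, against 14.1% and 13.8% of all genes. With culture 2 were higher and 3 lower in WT, where 24.7% and 23.6% of all genes were, and 2 were higher and 4 lower in KO, against 26.2% and 24%. *Nkg7*, a granule membrane protein of cytotoxic cells, rose by 0.72 in WT (SE 0.12) and 1.004 in KO (SE 0.12), and *Lamp2*, a lysosomal membrane protein, by 1.03 and 0.73 (SE 0.16 in each). *Igf2r*, a mannose-6-phosphate receptor that sorts granzymes to granules, fell by 1.09 in WT and 0.96 in KO (SE 0.15 in each). Of 10 tested genes of granule release, *Stxbp2*, which encodes the syntaxin-binding protein Munc18-2, was called at day 5, where 1.31% of all genes were higher, and 2 of the 10 had an unadjusted p under 0.05, against 14.1% of all genes. *Stxbp2* was at 281 and 271 CPM in WT and 417 and 416 CPM in KO (0.59, SE 0.12, FDR 0.0253). Its partner *Stx11*, at under 1 CPM at day 0, was at 2.28 and 1.92 CPM in WT and 4.22 and 3.21 CPM in KO at day 5, a difference that was not called (0.81, SE 0.53, FDR 0.545). In total 5 of the 10 release genes rose with culture in WT and 3 in KO, against the same 24.7% and 26.2% of all genes, and *Stx11*, which passed the filter through day 5 alone, had to be among them.

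**Figure D5:**
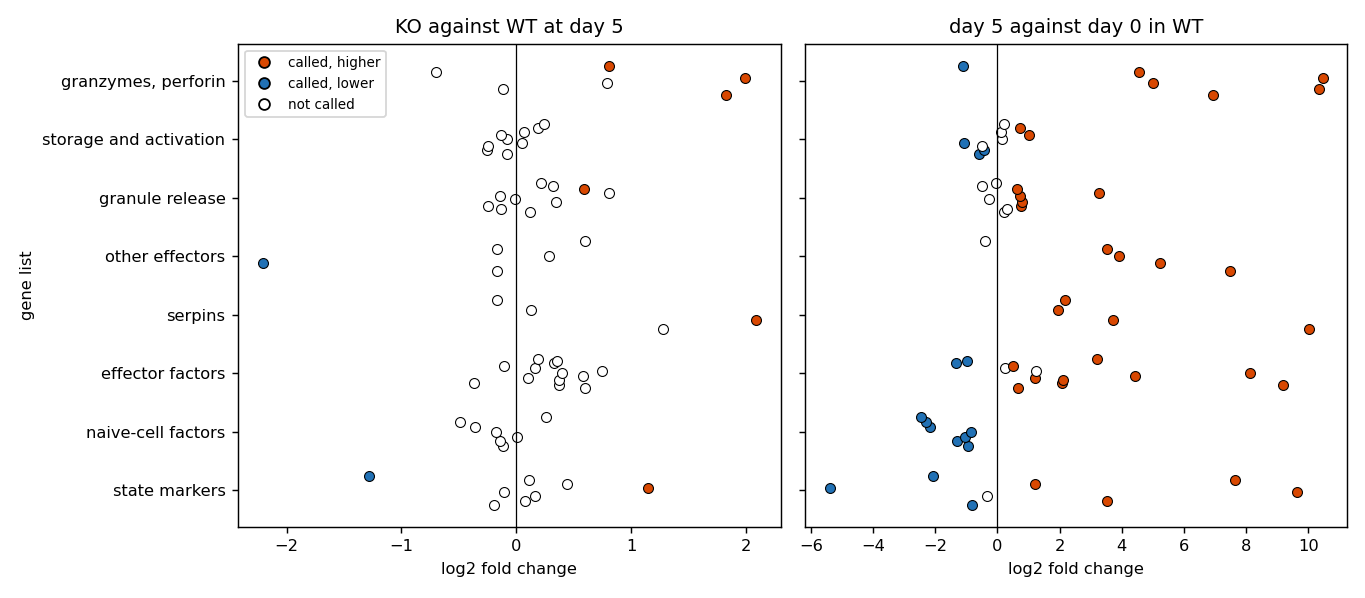
Fitted log2 fold change (horizontal axis) of each tested gene of the members and the pathway lists (rows), for KO against WT at day 5 (left) and for day 5 against day 0 in WT (right), with 1 point a gene and called genes filled. The transcription factors of naive cells lie below 0 for the day comparison and the protective serpins above 0, and few genes of any list are called between genotypes. Fitted values of genes near 0 counts at day 0 are no measure of size.

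Other effector genes and the serpins that protect cytotoxic cells moved with culture too. *Fasl*, *Ifng*, *Lta* and *Tnf*, 4 of 5 tested effectors, rose in both genotypes, against 24.7% of all genes in WT and 26.2% in KO. A listed gene that passed the filter through day 5 alone had to be higher there, which bears on this count and on those of the serpins and transcriptional regulators. *Fasl*, a death ligand, reached 521 and 426 CPM in WT and 460 and 385 CPM in KO. *Ifng*, encoding interferon gamma, was at 15.99 and 7.92 CPM in WT and 3.12 and 2.08 CPM in KO at day 5, where it was the effector that was lower in KO (-2.21, SE 0.47, FDR 0.0429), opposite in direction to *Gzma*, *Gzmk* and *Prf1*. All 4 tested serpins rose in both genotypes (24.7% and 26.2% of all genes), and 3 of the 4 were higher in KO at day 0 (*Serpinb6b*, *Serpinb1a* and *Serpina3g*), where 1.8% of all genes were called in either direction. At day 5 *Serpinb1a* alone was called between genotypes, and *Serpinb6b* (0.13, FDR 0.782) and *Serpina3g* (1.28, FDR 0.0595) were not. *Serpinb1a*, an inhibitor of granule proteases, was at 3.56 and 7.66 CPM in WT and 39.0 and 41.7 CPM in KO at day 0, and at 54.7 and 91.5 CPM in WT and 326 and 291 CPM in KO at day 5 (2.09, SE 0.24, FDR 0.00125). *Serpinb9*, the inhibitor of granzyme B, was at 147 and 115 CPM in WT and 123 and 112 CPM in KO at day 5 and was not called between genotypes. The *Serpina3* and *Serpinb1* groups hold near-identical copies, and their counts are uncertain to that extent.

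Of 13 tested transcriptional regulators of effector cells, 9 were higher and 2 lower at day 5 in each genotype. The shares of all genes were 24.7% and 23.6% in WT and 26.2% and 24% in KO. None was called between genotypes by edgeR, and 4 of 13 at day 5 (median 0.36) and 1 of 13 at day 0 (median 0.15) had an unadjusted p under 0.05, against 14.1% and 13.8% of all genes. *Batf*, an AP-1 family factor, came nearest to a call at day 5 (0.60, SE 0.15, FDR 0.0745). *Eomes*, a T-box factor of cytotoxic cells, rose by 2.07 in WT and 1.46 in KO, and *Bhlhe40* went from under 3 CPM in each day 0 library to 381 and 345 CPM in WT and 427 and 512 CPM in KO. *Stat5a* fell by 1.32 in WT (SE 0.19) and 0.92 in KO (SE 0.19). All 7 factors of naive and quiescent cells were lower at day 5 in both genotypes (23.6% and 24% of all genes), among them *Tcf7* (-2.44 in WT and -2.14 in KO), and none of the 7 was called between genotypes at day 5 by edgeR, 2 having an unadjusted p under 0.05, against 14.1% of all genes. *Id3* was higher in KO at day 0 (0.63, SE 0.13, FDR 0.0318). Of 8 tested markers of cell state, 1 was higher and 1 lower in KO at day 5. There 1.31% of all genes were higher and 0.318% lower. With culture 4 were higher and 3 lower in WT, against 24.7% and 23.6% of all genes. In KO 4 were higher and 4 lower, against 26.2% and 24%. The marker that was higher in KO at day 5 was *Il7r*, the receptor for the survival cytokine IL-7 (1.14, SE 0.18, FDR 0.00909).

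Because natural killer cells and gamma-delta T cells also make granzymes, markers of these and other cells were summed in each group. The 7 natural killer markers summed to 2.40 to 5.10 CPM in WT and 2.64 to 4.77 CPM in KO at day 5, and *Ncr1* was at 0.527 and 0 CPM in WT and at 0 in both KO libraries. The 6 CD8 T-cell markers summed to 8427 to 9163 CPM in WT and 8920 to 9072 CPM in KO at day 5. Among them *Cd8a* was higher in KO, at 829 and 731 CPM in WT and 1211 and 1160 CPM in KO (0.60, SE 0.11, FDR 0.0155), and its part in the members' values was not tested. *Cd4* was at most 0.960 CPM there. The 6 gamma-delta markers, by contrast, moved with the genotype label, with sums of 62.0 to 93.7 CPM in WT and 159 to 161 CPM in KO at day 0 and 320 to 346 CPM in WT and 512 to 609 CPM in KO at day 5. Their increase in KO at day 5 lay in *Tcrg-C2* (0.99, SE 0.15) and *Tcrg-C4* (1.58, SE 0.22), constant genes of the gamma chain, whereas *Trdc*, the constant gene of the delta chain, was at 27.2 and 45.1 CPM in WT and 29.3 and 21.3 CPM in KO, and *Sox13* was at 0 in all 4. The part of these cells in the levels of *Gzma* and *Gzmk* was not tested. In bulk RNA, more cells with a transcript and more transcript per cell cannot be told apart. The 4 B-cell markers summed to 67.0 to 68.4 CPM in WT and 80.8 to 83.8 CPM in KO at day 5, almost all of it *Cd79b*, the 5 myeloid markers to at most 5.85 CPM, the 5 mast cell and basophil markers to at most 8.40 CPM and the 5 neutrophil markers to at most 0.480 CPM.

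The genes whose pattern over the 8 libraries was nearest to that of a member were ranked by the Euclidean distance of centred log2 CPM, as a description. The nearest gene to both *Gzma* (distance 1.29) and *Gzmk* (1.06) was *Spp1*, encoding osteopontin, at 28.3 ± 1.27 CPM in WT and 118 ± 12.8 CPM in KO at day 5. *Gzma* and *Gzmk* were each the second nearest to the other (1.30), and *Tubb6*, a beta-tubulin, was the third nearest to both. The nearest to *Gzmb* were *Ifitm2*, *Ifitm1*, *S100a6*, *Pbk* and *Cdkn1a*, at distances from 1.74 to 2.84, each with at most 16 counts in a group at day 0. *Prf1* stood apart from the granzymes and was nearest to *Rbm10* (0.24), followed by *Gm37206*, *Stx17*, *Rptor* and *Trav9-1*. *Rbm10*, an RNA-binding splicing factor, was at 58.2 ± 8.76 CPM in WT and 58.0 ± 0.05 CPM in KO at day 0, and at 28.9 ± 8.60 CPM in WT and 47.3 ± 4.69 CPM in KO at day 5. A distance over 8 libraries in 4 groups mostly reflects day and genotype, which all genes share.

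The nearest annotated genes on each side were also compared. On chromosome 14 the flanking genes *Ctsg*, *Mcpt8*, *Atp12a* and *Rnf17*, and *Gzmn* within the cluster, were too low to be tested, so the high level of *Gzmb* had no counterpart among them. The other listed protease genes of the wider locus were likewise too low to be tested. On chromosome 13, *Esm1* lies on the plus strand within the span of *Gzmk* (chr13:113209659-113218098) and shares no exon with it. *Esm1* had 24 counts in WT and 119 in KO at day 5 (2.12, SE 0.59, FDR 0.117) and was not called between genotypes, and as it passed the filter through day 5 alone it had to be higher there than at day 0. On chromosome 10, *Bsg* beside *Gzmm* rose in both genotypes (2.79 in WT and 2.31 in KO), and *Pald1* beside *Prf1* fell in both (-1.97 and -1.82). None of the tested flanking genes was called between genotypes by edgeR at either day.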

How the data were processed

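RNA of 8 libraries, 4 groups of 2, was taken from the deposited tables, 1 for each library. Each holds raw read counts per gene symbol, which the authors deposited without normalization. Per the labels, Trizol-extracted total RNA was made into libraries with an NEBNext Ultra kit and read to 50 bases. The submitters' processing notes name HISAT2 2.1.0 and HTSeq 0.11.1 with mm10; the annotation is not given in the sources used here. Summary lines (aligned to several places 31.8% to 37.4% of records, no feature 27.5% to 33.7%) stayed out of all totals, which held 21.2% to 24.5% of records.

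Groups came from the sample titles. All 8 libraries were fitted together with edgeR 4.0.16 (R 4.3.3, TMM factors, filterByExpr with a minimum count of 10, quasi-likelihood test, a mean per group), and 12597 genes were tested, with Benjamini-Hochberg adjustment and calls at FDR under 0.05. Standard errors and intervals come from the same fit. The 5 comparisons were the genotypes at either day, the days within either genotype, and the interaction. Replicates differed beyond sampling noise (chi-square per degree of freedom 4.86 to 10.2). In data simulated for KO against WT at day 5, 92 of 200 genes changed 2-fold (12220 genes) and 165 of 200 changed 4-fold (12223 genes) were recovered, with 11 and 16 false calls. The simulated level of each gene was its mean over all 8 libraries, without a difference between days, so genes near 0 at day 0 are not represented. Exon lengths and coordinates are from GENCODE M21, promoters from RefSeq.

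All members are named. Other listed genes are given by counts and named where called between genotypes or in the interaction, and for the day comparisons from the largest changes of a list; *Serpinb9*, *Stx11*, *Eomes*, *Batf*, *Tcf7*, *Ncr1*, *Cd4*, *Trdc*, *Sox13* and *Cd79b* were named after their values were seen, and *Trdc*, *Sox13*, *Ncr1*, *Cd4* and *Cd79b* are defining markers. The members and lists were chosen with earlier results of these data known. A further gene that the naming rule covers is not reported here.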

Additional observations from a re-analysis of the deposited data

How the results depend on the processing

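The 26 member results were recomputed under 15 to 17 alternatives each, which included DESeq2 1.42.0, giving 434 values. Of these, 415 kept their direction and side of the threshold, 10 lost a call, 5 gained one and 4 turned direction. The turned values, none called, were *Gzma* at day 0 without WT day 0 replicate 1 (0.08) or KO day 0 replicate 1 (0.23), *Prf1* at day 0 without WT day 0 replicate 2 (0.050) and *Gzmm* at day 5 without WT day 5 replicate 1 (0.069), and with each library left out in turn these 3 results ranged from -0.45 to 0.23, from -0.32 to 0.050 and from -1.16 to 0.069. The count of members called between genotypes at day 5 ranged from 1 to 3 when each library was left out in turn, and it was 1 without KO day 5 replicate 1, where only *Gzmk* was called. The count for the interaction was 2 with no filter on low counts and 1 with DESeq2, against 0. A lone library left in a group is assumed to vary as the others do.

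With the replicate number as a block, 25 of 26 values kept direction and side, and *Prf1* at day 5 lost its call (0.81, FDR 0.0506, edgeR), which left 2 members called. Deviations of same-numbered libraries correlated by 0.118 in WT and 0.228 in KO between the days and by -0.0742 to 0.0044 between the other groups. The labels do not say that a number marks a shared mouse, so the libraries were not taken as paired.

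With 3 counts as the limit, differences between genotypes in *Gzmc* and *Gzmk* at day 0 and any level of *Gzmd* to *Gzmg* were below what this depth can show. The call of *Prf1* at day 5 depended on the processing, and those of *Gzma* and *Gzmk* did so little or not at all.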
